A study of Mus musculus with 12 samples.

Results

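The genes examined here make, take up, bind, sense and break down retinoic acid, the active form of vitamin A. All probe sets annotated to Aldh1a1, Aldh1a2, Aldh1a3, Stra6, Crabp1, Crabp2, Rarb, Cyp26a1 and Cyp26b1 were taken, which gave 11 of 45101 probe sets and 9 of 18194 named genes. Aldh1a3 had 3 probe sets and each of the other genes had 1. RNA had been profiled on 12 Affymetrix arrays, of which 8 came from mouse otic vesicles, the epithelial sacs that become the inner ear, and 4 from 2B1, a cell line of otic vesicle origin. By its title the series looks for genes that act downstream of Dlx5, a homeobox transcription factor gene. Wild-type embryos and embryos labelled Dlx5-null gave vesicles of 2 stages, embryonic day 10 (E10) and E10.5, with 2 arrays for each stage and genotype. Each vesicle array was a separate pool of 4 to 8 vesicles that had been treated with dispase to take off adhering mesenchyme. The 2B1 cultures had been transiently transfected with a vector carrying GFP alone (empty vector) or with Dlx5 and GFP, with 2 independent cultures each, and were then held for 4 days at 37 °C without gamma-interferon. The strain and the structure of the Dlx5 allele were not stated in the sources at hand.

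Retinol enters cells through membrane proteins such as STRA6 and is oxidised to retinaldehyde, which the ALDH1A enzymes turn into retinoic acid. Inside the cell retinoic acid is held by the CRABP proteins, acts through nuclear receptors such as RARB that sit on direct repeats in target promoters, and is cleared by CYP26 enzymes. Both too little and too much retinoic acid disturb the patterning of the embryonic inner ear.

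Levels are log2 values, on which a difference of 1 is a doubling, and the 2 arrays of each group limit the precision. Levels were not set across vesicles and 2B1 cells, whose arrays appear to have been normalized separately, nor across probe sets. The Dlx5 probe set went against the labels, with 6.11 to 6.30 in wild-type and 7.27 to 8.02 in labelled-null vesicles, so the latter are called by their label throughout. Both E10 replicate 1 arrays stood apart, with a spread of values (SD 2.32 and 2.33) below that of the other E10 arrays (2.47 and 2.45), and in 2B1 cells empty vector replicate 1 did so, with an SD of 2.19 against 2.29 to 2.31. Results that rest on these arrays are given with and without them. At E10.5 labelled-null replicate 2 also had a lower SD, 2.38 against 2.45 to 2.47 in the other arrays of that stage. It was left out only among the single omissions. In vesicles 9 to 10 of 10 otic epithelial markers lay above the filter of 5.19, whereas in 2B1 cells 3 to 4 of these 10 lay below the filter of 4.85. In these bulk samples fewer cells of a type and less RNA per cell cannot be told apart.

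Among the synthesis genes, Aldh1a3 showed the clearest order of groups. Its probe set 1448789_at, taken for the tests by its mean in vesicles, had E10 levels of 4.91 and 6.19 (wild-type) and 6.63 and 7.47 (labelled-null), with 7.70 and 8.00 (wild-type) and 8.99 and 8.87 (labelled-null) at E10.5. None of the 4 groups overlapped, and the level was lowest in E10 wild-type and highest in E10.5 labelled-null vesicles. Probe set 1417642_at gave the same order, with E10 levels of 5.90 and 5.85 (wild-type) and 6.11 and 6.94 (labelled-null) and E10.5 levels of 7.03 and 7.13 (wild-type) and 7.99 and 8.18 (labelled-null). Probe set 1427395_a_at covered a smaller span, with E10 levels of 5.69 and 5.23 (wild-type) and 6.0 and 6.17 (labelled-null) and E10.5 levels of 5.87 and 5.92 (wild-type) and 6.08 and 6.20 (labelled-null). In this last set the labelled-null arrays again lay above the wild-type arrays at each stage, but the labelled-null groups of the 2 stages overlapped.

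**Figure D1:**
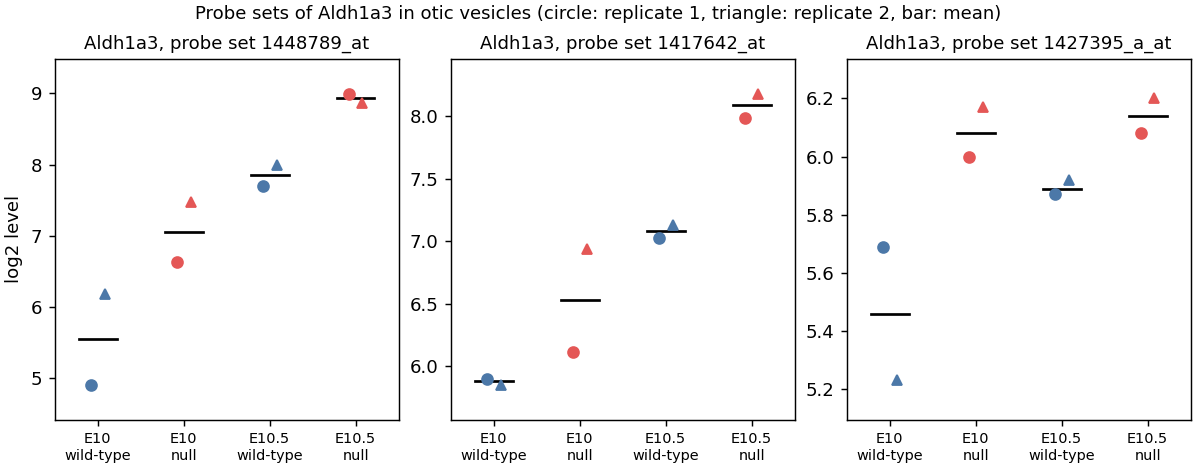
Log2 level of the 3 Aldh1a3 probe sets in the 8 otic vesicle arrays, by stage and genotype label, with circles for replicate 1, triangles for replicate 2 and bars for the mean of 2 arrays. In each panel, which has its own axis, both labelled-null arrays lie above both wild-type arrays of the same stage.

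Aldh1a2, the main retinoic acid-making enzyme gene of early embryonic mesoderm, had E10 levels of 4.97 and 7.63 (wild-type) and 6.04 and 7.79 (labelled-null), with 9.24 and 9.47 (wild-type) and 8.47 and 8.56 (labelled-null) at E10.5. Every E10.5 array lay above every E10 array, the lowest values were those of the E10 replicate 1 arrays, and the genotypes overlapped at E10 but not at E10.5, where the labelled-null arrays were lower. Aldh1a1, the third enzyme gene of the family, had E10 levels of 7.49 and 8.25 (wild-type) and 8.24 and 7.36 (labelled-null) and E10.5 levels of 7.62 and 7.52 (wild-type) and 7.05 and 6.37 (labelled-null). Its genotypes overlapped at E10, and both labelled-null arrays at E10.5 were the lowest of all 8.

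Stra6, the gene of the retinol uptake receptor, separated by stage and not by genotype. It had E10 levels of 7.13 and 7.55 (wild-type) and 6.91 and 7.62 (labelled-null), with 8.91 and 8.67 (wild-type) and 8.92 and 8.62 (labelled-null) at E10.5. The lowest E10.5 array was above the highest E10 array, and the genotypes overlapped at both stages.

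Crabp1 and Crabp2, the genes of the cytoplasmic binding proteins, varied little between vesicle arrays. Crabp1 had E10 levels of 13.38 and 13.61 (wild-type) and 13.20 and 13.37 (labelled-null), with 13.24 and 13.21 (wild-type) and 13.22 and 13.20 (labelled-null) at E10.5. Crabp2 had E10 levels of 11.51 and 11.83 (wild-type) and 11.42 and 11.61 (labelled-null) and E10.5 levels of 11.93 and 11.82 (wild-type) and 11.89 and 11.77 (labelled-null). The group means spanned 0.29 for Crabp1 and 0.36 for Crabp2 from lowest to highest, and only the E10 groups of Crabp1 failed to overlap between genotypes, by a narrow margin.

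Rarb, a receptor gene that retinoic acid itself induces, and Cyp26a1, the degrading enzyme gene induced in the same way, are textbook targets of the pathway. RefSeq promoter windows (GRCm38.p6, 250 bases before to 50 after the start) were available for 7 of the 9 genes, in 11 windows, and not for Aldh1a3 or Crabp2. A direct repeat of 2 half-sites spaced by 5 bases (DR5), in the degenerate RGKTCA form and searched on both strands, was present in the windows of Rarb and Cyp26a1, 2 of 7 genes, and in 0.0974% of all 32851 windows. The 250 bases before each start are shown because they hold these repeats, in capitals, at chr14:16575477-16575726 (minus strand) for Rarb and chr19:37697558-37697807 (plus strand) for Cyp26a1.
Rarb: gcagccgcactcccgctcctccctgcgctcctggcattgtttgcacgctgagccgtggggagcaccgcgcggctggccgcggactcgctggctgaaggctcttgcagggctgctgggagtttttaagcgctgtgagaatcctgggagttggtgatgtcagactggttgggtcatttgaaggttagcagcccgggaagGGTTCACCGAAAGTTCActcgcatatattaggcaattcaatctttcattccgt
Cyp26a1: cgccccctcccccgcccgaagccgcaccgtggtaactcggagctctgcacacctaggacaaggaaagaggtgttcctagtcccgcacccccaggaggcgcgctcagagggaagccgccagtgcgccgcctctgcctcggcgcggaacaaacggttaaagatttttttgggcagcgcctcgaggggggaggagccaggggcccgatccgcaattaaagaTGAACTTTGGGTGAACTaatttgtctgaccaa
The Rarb repeat, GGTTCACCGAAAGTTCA, lies on the strand of the gene from -53 to -37 relative to the start. The Cyp26a1 repeat lies on the opposite strand from -32 to -16, where it reads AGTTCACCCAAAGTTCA. These positions count from the start used for each window, which is not the outermost start of either gene. The RefSeq gene spans begin at chr14:17082331 for Rarb and chr19:37697738 for Cyp26a1, and both repeats lie inside them. The repeats of AGGTCA with spacers of 1, 2 and 5 bases, and the degenerate forms with spacers of 1 and 2, were in 0 of the 11 windows, against 0.0396%, 0.00913%, 0.00913%, 0.222% and 0.268% of all windows. The half-site AGGTCA was likewise in 0 of the 11 (16.3% of all), as was the homeodomain core TAATTA (5.29% of all). These matches, in which the shorter letters can lie inside the longer ones, describe the letters of these windows only.

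Rarb lay just above the filter of 5.19 by its mean of 5.32, and had E10 levels of 5.12 and 5.0 (wild-type) and 4.93 and 5.25 (labelled-null), with 5.40 and 5.44 (wild-type) and 5.71 and 5.67 (labelled-null) at E10.5. Cyp26a1 had E10 levels of 11.16 and 11.71 (wild-type) and 11.52 and 12.10 (labelled-null) and E10.5 levels of 12.11 and 12.04 (wild-type) and 12.19 and 12.15 (labelled-null). Cyp26b1, the second degrading enzyme gene, had E10 levels of 7.59 and 7.69 (wild-type) and 7.41 and 7.34 (labelled-null) and E10.5 levels of 7.89 and 7.96 (wild-type) and 7.88 and 7.94 (labelled-null). All E10.5 arrays lay above all E10 arrays for Rarb and Cyp26b1, whereas for Cyp26a1 1 E10 labelled-null array reached into the E10.5 range. Of the Rarb values 3 of 4 at E10 were below the filter and all 4 at E10.5 above it, so the gene passed the filter only through its E10.5 arrays. Between genotypes, Rarb and Cyp26a1 overlapped at E10 and were higher in both labelled-null arrays at E10.5, and Cyp26b1 was lower in both labelled-null arrays at E10 and overlapped at E10.5.

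**Figure D2:**
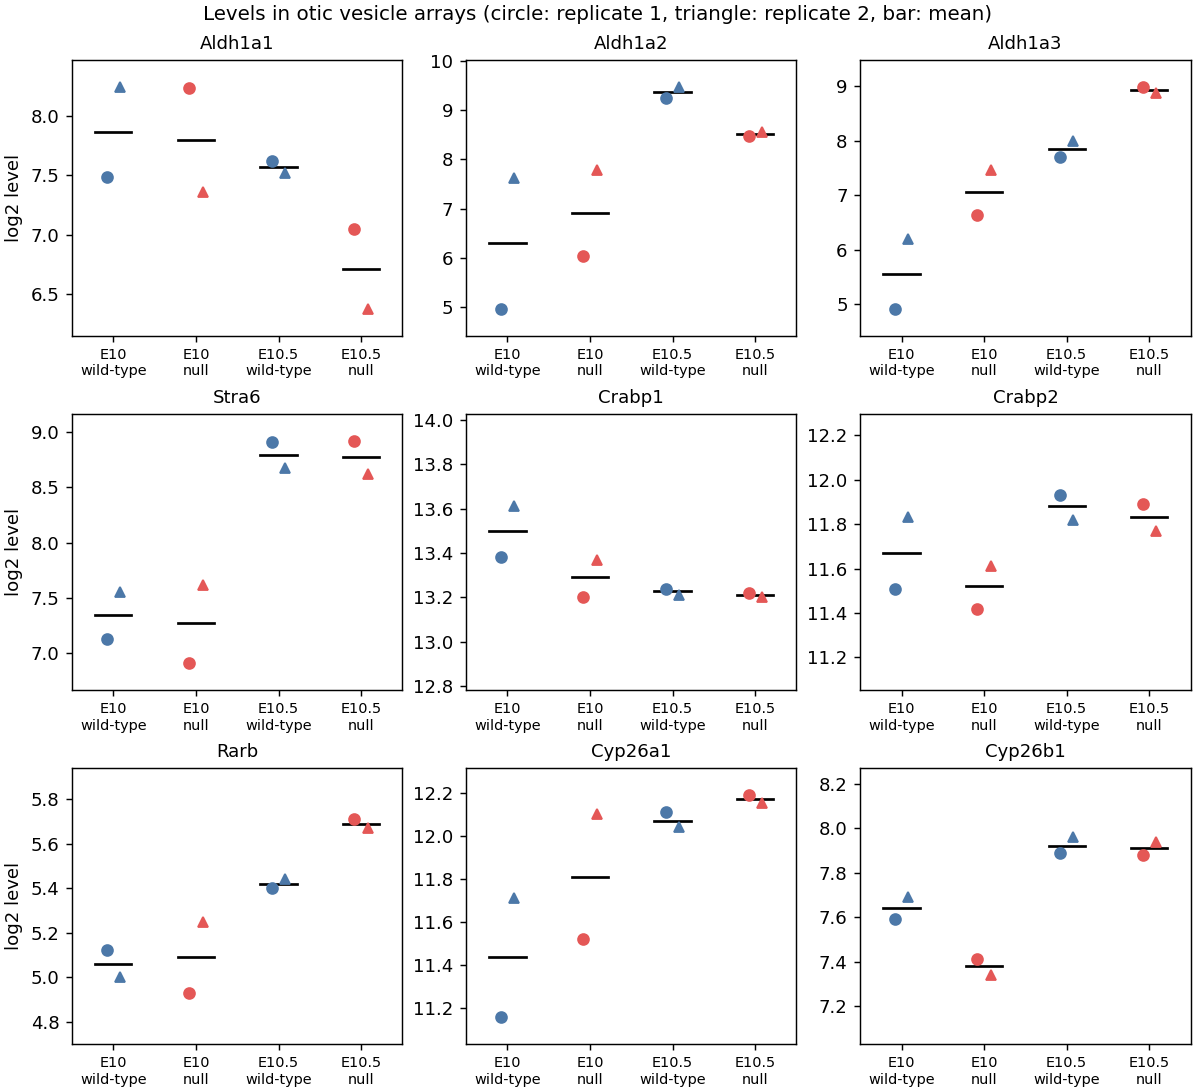
Log2 level of the 9 genes in the 8 otic vesicle arrays, 1 probe set a gene, with wild-type in blue, labelled Dlx5-null in red, circles for replicate 1, triangles for replicate 2 and bars for the mean of 2 arrays, each panel on its own axis. Aldh1a2, Aldh1a3, Stra6, Rarb and Cyp26b1 have all 4 E10.5 arrays above all 4 E10 arrays.

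The comparison of labelled Dlx5-null with wild-type vesicles asks which genes depend on Dlx5. Aldh1a3 had the largest difference of the 9 genes, 1.29 higher in labelled-null vesicles over both stages (SE 0.29, 95% interval 0.62 to 1.96, 4 arrays against 4 with stage as a covariate), but it did not pass over all 13645 genes tested (limma unadjusted p = 0.00193, adjusted p = 0.418). Its other probe sets differed by 0.83 (SE 0.18) and 0.44 (SE 0.14) in the same direction. Of the 9 genes 0 were called (0.0220% of all genes tested were, 3 genes), and 1, Aldh1a3, was past an unadjusted p of 0.05 (4.10% of all). Aldh1a3 was also the only one of the 9 whose groups did not overlap at both stages in the same direction, against 5.21% of all genes. Without both E10 replicate 1 arrays, which leaves 1 array in each E10 group, the difference of Aldh1a3 was 1.15. That omission was chosen with earlier results of these data known.

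The other 8 genes had limma adjusted p = 0.999 each. Cyp26a1 was 0.24 higher (SE 0.17) and Rarb 0.15 higher (SE 0.11) in labelled-null vesicles. Aldh1a1 was lower with a difference of -0.46 (SE 0.28), Cyp26b1 with -0.14 (SE 0.10), Crabp1 with -0.11 (SE 0.11), Aldh1a2 with -0.11 (SE 0.61), Crabp2 with -0.10 (SE 0.11) and Stra6 with -0.05 (SE 0.18). The 95% interval was narrowest for Cyp26b1, -0.37 to 0.09, and widest for Aldh1a2, -1.50 to 1.28. With 1 array left out the value of Aldh1a1 ranged from -0.25 without E10.5 labelled-null replicate 2 to -0.72 without E10 labelled-null replicate 1, and was -0.87 (SE 0.17, limma adjusted p = 0.172) without both E10 replicate 1 arrays and -0.13 with the level of the Y-linked gene Eif2s3y as a covariate. Over the same omissions Cyp26a1 ranged from 0.09 to 0.32, Rarb from 0.11 to 0.24, Cyp26b1 from -0.18 to -0.09 and Crabp1 from -0.14 to -0.05. Stra6, Aldh1a2 and Crabp2 had no settled direction, since leaving out 1 array or adding that covariate turned the sign of Stra6 and Aldh1a2, and the covariate turned the sign of Crabp2. The median difference of the 9 genes was -0.10, against -0.01 over all genes tested.

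**Figure D3:**
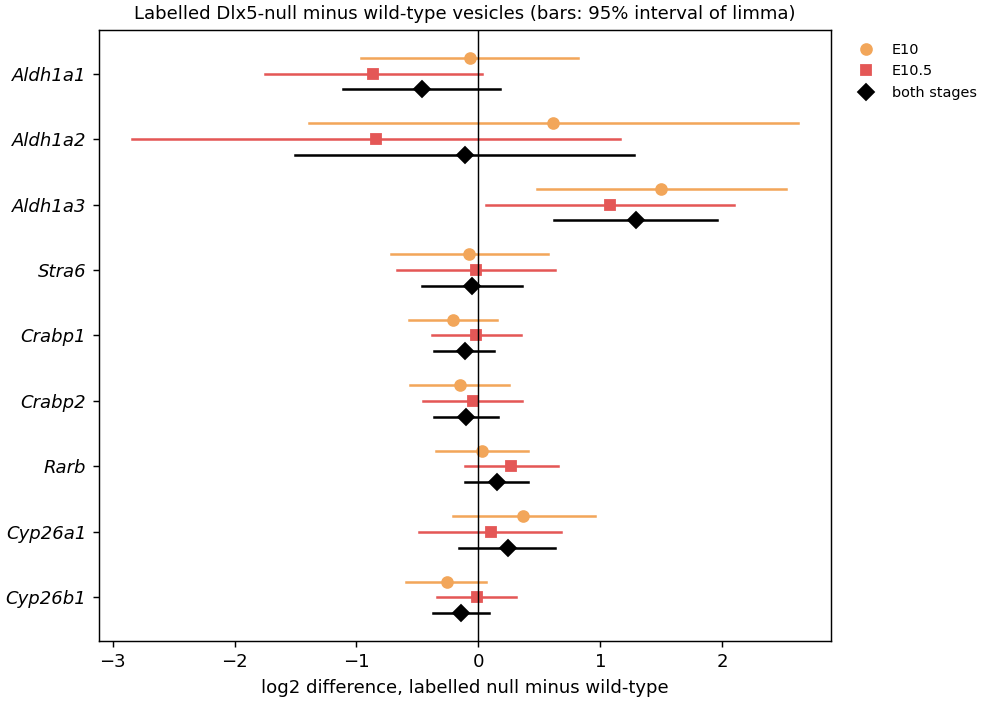
Labelled Dlx5-null minus wild-type log2 difference of the 9 genes at E10, at E10.5 and over both stages, with 95% intervals from limma. Over both stages the interval of Aldh1a3, 0.62 to 1.96, is the only one that leaves out 0, before adjustment over all genes.

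Within the stages, which share 1 estimate of the spread over the 8 arrays, 0 of the 9 genes were called by limma at E10 (0% of all genes) or at E10.5 (0.00733% of all), and 1 at each stage had an unadjusted p under 0.05, Aldh1a3, against 3.31% and 2.95% of all. At E10 3 of 9 genes did not overlap between genotypes (17.4% of all genes), namely Aldh1a3 (difference 1.50, SE 0.43), Crabp1 (-0.21) and Cyp26b1 (-0.26). Leaving out E10 wild-type replicate 1 took the E10 difference of Aldh1a3 to 0.86, leaving out replicate 2 of that group took it to 2.14, and the latter took that of Crabp1 to -0.10. At E10.5 5 of 9 did not overlap (45.1% of all genes), namely Aldh1a3 (1.08, SE 0.43), Rarb (0.27), Cyp26a1 (0.10), Aldh1a1 (-0.86, SE 0.38) and Aldh1a2 (-0.84, SE 0.85). Without E10.5 labelled-null replicate 2 the value of Aldh1a1 was -0.52. Without both E10 replicate 1 arrays 0 of the 9 genes were called at either stage, with Aldh1a3 at 1.28 (limma adjusted p = 0.119) at E10 and at adjusted p = 0.0739 at E10.5. The test of whether the genotype difference itself changed with stage called 0 of the 9 genes and 0% of all (0 of the 9 and 1.97% of all, 269 genes, had an unadjusted p under 0.05).

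Cell type markers also differed between the genotype labels. Of 11 tested markers of periotic mesenchyme 10 were lower in labelled-null vesicles. Over all 12 listed markers the array means at E10 were 6.29 to 6.77 (wild-type) against 6.16 to 6.43 (labelled-null). At E10.5 they were 7.02 to 7.16 against 6.71 to 6.91. All 6 markers of otic neuroblasts were higher, and all 5 tested blood markers were too, with 0 markers called in any of these lists. Their part in the difference of Aldh1a3 was not tested. Eif2s3y, a Y-linked gene that reflects the share of male embryos in a pool, had E10 levels of 7.04 and 3.96 (wild-type) and 6.50 and 6.17 (labelled-null), with 3.21 and 3.45 (wild-type) and 4.82 and 5.04 (labelled-null) at E10.5. With its level as a covariate the Aldh1a3 difference was 1.82 (limma adjusted p = 0.0862), and that of Aldh1a2 became 1.05 (adjusted p = 0.410).

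The comparison of E10.5 with E10 vesicles follows the pathway over the development of the vesicle. Over both genotypes, a fit added after the values in each genotype had been seen, 5 of the 9 genes rose from E10 to E10.5 and 0 fell, while 15.8% of all genes tested were called and 9.28% rose. Stra6 rose by 1.48 (SE 0.18, limma adjusted p = 0.00434) and Aldh1a3 by 2.09 (SE 0.29, limma adjusted p = 0.00545). Rarb rose by 0.48 (SE 0.11, limma adjusted p = 0.0284), Cyp26b1 by 0.41 (SE 0.10, limma adjusted p = 0.0323) and Aldh1a2 by 2.33 (SE 0.61, limma adjusted p = 0.0375). The call of Rarb rests on E10 values of which 3 of 4 lay below the filter, and with no filter it stood at limma adjusted p = 0.0342. The genes that rose included 2 for synthesis, 1 for uptake, 1 receptor and 1 for degradation. They were also the 5 genes whose 4 E10.5 arrays all lay above their 4 E10 arrays, against 15.3% of all genes that lay higher in this way and 25.3% that did not overlap in either direction.

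The other 4 genes did not pass. Cyp26a1 was 0.50 higher at E10.5 (SE 0.17, limma adjusted p = 0.0796) and Crabp2 0.26 higher (SE 0.11, limma adjusted p = 0.151). Aldh1a1 was lower, with -0.69 (SE 0.28, limma adjusted p = 0.124), and so was Crabp1, with -0.17 (SE 0.11, limma adjusted p = 0.292). The median difference of the 9 genes was 0.48, against 0.05 over all genes tested.

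The calls of Aldh1a3 and Stra6 held with any 1 of the 8 arrays left out, while those of Rarb, Cyp26b1 and Aldh1a2 were lost without E10 labelled-null replicate 1 (limma adjusted p = 0.0653, 0.0799 and 0.103) or without any single E10.5 array (adjusted p from 0.0768 to 0.118). Arrays centred on their median ended the call of Aldh1a2 (adjusted p = 0.0509), and leaving out the lowest 50% of genes ended that of Rarb, which the filter then removed. Without both E10 replicate 1 arrays, which leaves 1 array in each E10 group, Aldh1a2 was 1.22 higher at E10.5, Aldh1a3 1.56 and Cyp26b1 0.40. Aldh1a1 was lower there, with -0.67. With the level of Eif2s3y as a covariate only Aldh1a3 was called, and Stra6 stood at limma adjusted p = 0.0526. The difference of Aldh1a2 was then 0.62 (limma adjusted p = 0.487). The mean level of Eif2s3y was itself higher at E10 than at E10.5 in each genotype, so this covariate overlaps with stage. Over all genes the calls fell with it from 2158 to 233 of 13645.

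**Figure D4:**
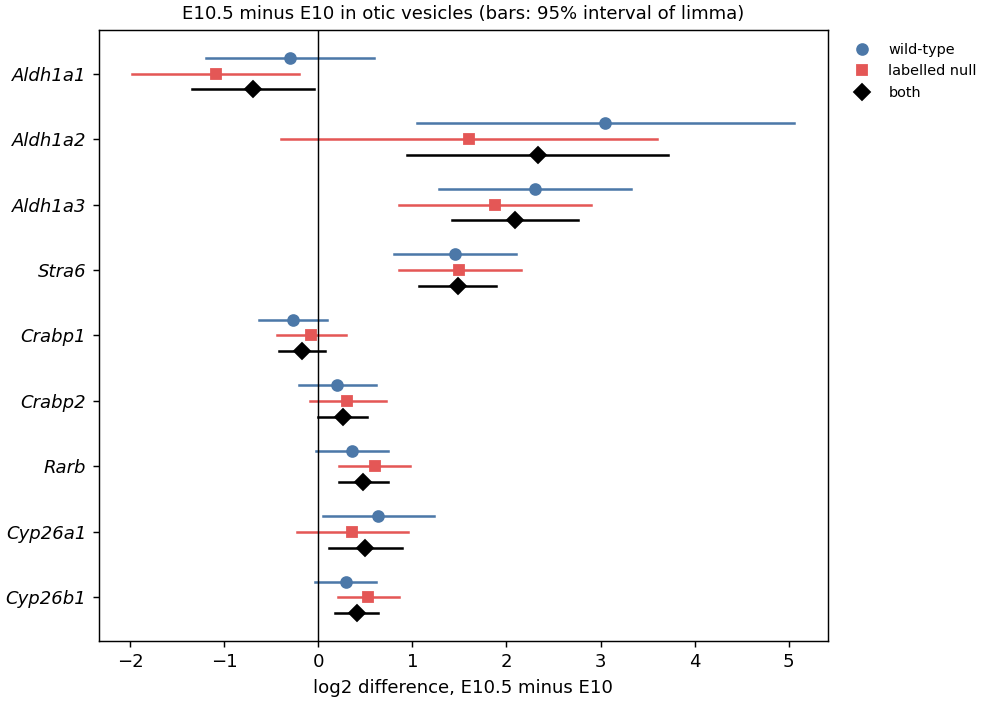
E10.5 minus E10 log2 difference of the 9 genes in wild-type vesicles, in labelled Dlx5-null vesicles and over both, with 95% intervals from limma. Aldh1a3, Aldh1a2 and Stra6 have the largest differences over both genotypes, 2.09, 2.33 and 1.48, while those of Crabp1 and Crabp2 lie near 0.

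In wild-type vesicles alone 2 of the 9 genes rose (1.17% of all genes tested rose, 2.17% were called), Aldh1a3 by 2.30 (SE 0.43, limma adjusted p = 0.0494) and Stra6 by 1.45 (SE 0.27, limma adjusted p = 0.0496). Both were close to the threshold, and both calls were lost without E10 wild-type replicate 1 (1.66 and 1.24, limma adjusted p = 0.142 and 0.174) or without any single E10.5 array (adjusted p from 0.121 to 0.409). They were also lost with probe sets tested singly, with no filter, with centred arrays and with the Eif2s3y covariate (limma adjusted p from 0.0520 to 0.233). Aldh1a2 had the largest difference, 3.05 (SE 0.85), and did not pass (limma adjusted p = 0.109). Without both E10 replicate 1 arrays, which leaves 1 array in each E10 group, Aldh1a2 was 1.73 higher, Aldh1a3 1.66 and Stra6 1.24. Between the stages 7 of the 9 genes did not overlap in wild-type vesicles (56.9% of all genes). The other Aldh1a3 probe sets were 1.20 (1417642_at) and 0.43 (1427395_a_at) higher at E10.5 in wild-type vesicles.

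In labelled-null vesicles 0 of the 9 genes were called (0.0220% of all), with 5 at an unadjusted p under 0.05 (15.3% of all). Stra6 was 1.50 higher at E10.5 (SE 0.27, limma adjusted p = 0.0931), Aldh1a3 1.88 higher (SE 0.43, adjusted p = 0.131) and Aldh1a2 1.60 higher (SE 0.85, adjusted p = 0.425). The other Aldh1a3 probe sets were 1.56 (1417642_at) and 0.06 (1427395_a_at) higher. Without both E10 replicate 1 arrays, which leaves 1 array in each E10 group, Aldh1a3 was 1.46 higher, Stra6 1.15 and Aldh1a2 0.73. The value of Aldh1a2 was likewise 0.73 without E10 labelled-null replicate 1 alone (limma adjusted p = 0.901), and 0.34 with the Eif2s3y covariate (adjusted p = 0.787). Here 8 of the 9 genes did not overlap between stages (45.0% of all genes). The wild-type and labelled-null stage values did not differ past the threshold for any of the 9 genes in the interaction test above (limma adjusted p = 1.00 each).

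Markers of other cell types rose with stage as well. All 5 tested blood markers rose over both genotypes, with array means of 8.47 to 9.69 at E10 and 10.75 to 11.90 at E10.5. Of 11 tested markers of periotic mesenchyme 5 rose, with array means over all 12 listed markers of 6.16 to 6.77 and 6.71 to 7.16. Of 10 otic epithelial markers 4 rose and 2 fell, with array means of 8.18 to 8.81 and 8.73 to 9.12. Each of these lists was lowest in the E10 replicate 1 arrays (wild-type and labelled-null). There the otic list stood at 8.18 and 8.23, the blood list at 8.47 and 8.62, and the periotic mesenchyme list at 6.29 and 6.16. Of 6 markers of otic neuroblasts 3 rose and 1 fell, while 2 of 5 tested endothelial and 1 of 2 tested hindbrain markers rose. Over all genes tested 9.28% rose and 15.8% were called. The part of these cell types in the stage differences was not tested.

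The other genes of the pathway, a list of 58 of which 50 were on the array and 40 passed the filter in vesicles, showed 4 that rose and 3 that fell from E10 to E10.5 over both genotypes in limma, with a list median of 0.10 against 0.05 over all genes. Over all genes 9.28% rose and 15.8% were called in either direction, so the count of 7 of 40 lies near the background and is no result about the list. The receptor gene Rxrg had E10 levels of 6.49 and 6.59 (wild-type) and 6.94 and 6.98 (labelled-null), with 7.71 and 7.94 (wild-type) and 7.92 and 7.66 (labelled-null) at E10.5. Its E10.5 arrays were all above its E10 arrays, and it rose by 1.06 (SE 0.13, limma adjusted p = 0.00474). Rxrb, another of the RXR partner receptors, rose by 0.44 (SE 0.11, limma adjusted p = 0.0293), and all 6 receptor genes of the list were higher at E10.5, 2 of them called. Rdh10, which makes the retinaldehyde that the ALDH1A enzymes use, rose by 0.97 (SE 0.28, limma adjusted p = 0.0477), and Nr2f2, an orphan receptor gene, by 0.47 (SE 0.14, limma adjusted p = 0.0494).

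Nrip1, a corepressor gene of nuclear receptors, had E10 levels of 9.50 and 9.54 (wild-type) and 9.71 and 10.29 (labelled-null) and E10.5 levels of 8.91 and 8.72 (wild-type) and 8.96 and 8.75 (labelled-null). All its E10.5 arrays were below its E10 arrays, and its difference was -0.92 (SE 0.16, limma adjusted p = 0.0103). Meis2, a homeobox gene, and Ripply3, a Tbx1-binding repressor gene, also fell, with -0.83 (SE 0.17, limma adjusted p = 0.0158) and -0.74 (SE 0.16, limma adjusted p = 0.0200). Of these 7 calls only those of Rxrg and Nrip1 held with any 1 array left out, and with Eif2s3y as a covariate these stood at adjusted p = 0.0528 and 0.0610. The calls of Rdh10 and Rxrb were each lost under 7 of the 8 single omissions, with adjusted p up to 0.151 and 0.118, and that of Nr2f2 under 6, up to 0.168, and all 3 were lost with centred arrays (0.0694, 0.0503 and 0.0740). Without both E10 replicate 1 arrays these 3 also lost their calls (limma adjusted p = 0.120, 0.0510 and 0.0982, with Rdh10 at 0.52), while Rxrg, Nrip1, Meis2 and Ripply3 stayed called (adjusted p from 0.00491 to 0.0126). The call of Ripply3 was lost without any single E10.5 array (up to 0.0725) and that of Meis2 without E10.5 wild-type replicate 1 or E10.5 labelled-null replicate 2 (0.0644 and 0.0516). A mean over all probe sets of the gene gave -0.28 for Meis2 (limma adjusted p = 0.144) and 0.11 for Nr2f2 (adjusted p = 0.437).

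In wild-type vesicles alone 2 of the 40 were called, against 2.17% of all genes. Rxrg rose by 1.29 (SE 0.16, limma adjusted p = 0.0302), and Ncoa2, a coactivator gene, fell, with -1.09 (SE 0.18, limma adjusted p = 0.0410). As a mean over all probe sets of the gene Ncoa2 was -0.34 and did not pass (limma adjusted p = 0.169). With Eif2s3y as a covariate it was -1.05 and did not pass either (limma adjusted p = 0.178). Ncoa2 had E10 levels of 7.80 and 7.80 (wild-type) and 7.19 and 6.90 (labelled-null), with 6.53 and 6.88 (wild-type) and 6.89 and 7.02 (labelled-null) at E10.5. Only the E10 wild-type arrays stood apart, above all others. Both calls were lost without E10 wild-type replicate 1 (limma adjusted p = 0.120 for Rxrg and 0.141 for Ncoa2) or any single E10.5 array (up to 0.374 and 0.408), and with centred arrays (0.0526 and 0.0687), and stood without both E10 replicate 1 arrays (0.0191 and 0.0254).

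Between genotype labels 0 of the 40 pathway genes were called (3 had an unadjusted p under 0.05, against 4.10% of all genes), with 25 higher and 15 lower in labelled-null vesicles and a median of 0.04 against -0.01 over all genes. Ripply3 had E10 levels of 7.31 and 7.44 (wild-type) and 7.95 and 8.53 (labelled-null) and E10.5 levels of 6.80 and 6.92 (wild-type) and 7.21 and 7.32 (labelled-null). Its labelled-null arrays lay above its wild-type arrays at both stages, and its difference, 0.64 (SE 0.16, limma unadjusted p = 0.00358, adjusted p = 0.544), was the largest of the 40. The largest differences by role were those of Rdh11 (-0.41), Rdh10 (-0.20) and Aldh8a1 (0.15) among synthesis genes, Ttr (-0.11), Fabp5 (-0.08) and Rbp2 (0.05) among carriers, and Rxrg (0.19), Rxra (0.16) and Ppard (-0.12) among receptors. Kat2b (-0.31), Nrip1 (0.26) and Ncoa2 (-0.25) led the coregulators, and Meis1 (-0.56) and Nr2f1 (0.39) followed Ripply3 among response genes. With Eif2s3y as a covariate Rdh10, Aldh8a1, Rbp2 and Rxra turned sign, and as a mean over all probe sets of the gene Meis1 was -0.21 and Nrip1 0.01.

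In 2B1 cells the comparison of Dlx5 transfection with empty vector asks which genes respond to added Dlx5. The Dlx5 probe set itself read 5.14 and 4.80 in the cultures labelled Dlx5 and 4.66 and 4.79 in those with empty vector. It lay below the filter of 4.85 in 3 of the 4 arrays and so does not bear out the label, and whether its probes cover the transfected sequence was not examined, so these cultures are called by their label. Of the 7 genes that passed the filter, 0 were called by limma, and 0 of all 13647 genes were (0% of all). At an unadjusted p under 0.05 there were 4 of the 7 genes and 12.9% of all, and 6 of 7 did not overlap between groups, against 48.8% of all genes. Crabp1 stood first, at 8.26 and 8.30 in cultures labelled Dlx5 and 7.34 and 7.40 with empty vector, which differed by 0.91 (SE 0.16, 2 arrays against 2, 95% interval 0.55 to 1.27, limma unadjusted p = 4.50e-04, adjusted p = 0.334). The pairs of replicates lay close together and the groups far apart.

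Cyp26b1 read 8.17 and 8.16 in cultures labelled Dlx5 and 8.74 and 8.93 with empty vector, which gave a difference of -0.67 (SE 0.16, limma adjusted p = 0.377). Aldh1a1 read 9.04 and 8.94 against 8.19 and 8.75, a difference of 0.52 (SE 0.21, limma adjusted p = 0.382). Both arrays labelled Dlx5 were below both empty vector arrays for Cyp26b1 and above them for Aldh1a1, whose empty vector cultures differed from each other. Without empty vector replicate 1 the difference of Aldh1a1 was 0.24 and without replicate 2 it was 0.80. Aldh1a3, measured here by its probe set 1417642_at, read 4.95 and 5.21 against 6.19 and 5.41, a difference of -0.72 (SE 0.26, limma adjusted p = 0.382). Its groups did not overlap, but empty vector replicate 1 stood above the other 3 arrays, the difference was -0.33 without that array, and the other 2 probe sets, both near or below the filter, gave -0.12 and -0.10.

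Stra6 read 5.80 and 6.05 in cultures labelled Dlx5 and 6.23 and 6.06 with empty vector (difference -0.22, SE 0.17, limma adjusted p = 0.570), and Crabp2 read 6.44 and 6.40 against 6.58 and 6.46 (-0.10, SE 0.16, adjusted p = 0.796). Cyp26a1 read 8.66 and 8.54 against 8.37 and 8.77 (0.03, SE 0.19, limma adjusted p = 0.956), with overlapping groups and a sign that turned when either replicate 1 array was left out. Without empty vector replicate 1 the difference was 0.88 for Crabp1, -0.76 for Cyp26b1, -0.13 for Stra6, -0.04 for Crabp2 and -0.17 for Cyp26a1. Aldh1a2 read 4.04 and 4.37 against 4.08 and 3.77, and Rarb read 3.60 and 3.90 against 3.75 and 3.75. Both were under the filter of 4.85 in every 2B1 array and were not tested. Of 8 tested markers of periotic mesenchyme 7 were higher in cultures labelled Dlx5, with 0 called. Over all 12 listed markers the array means were 7.29 to 7.33 against 6.94 to 7.13. The part of these markers in the differences above was not tested.

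**Figure D5:**
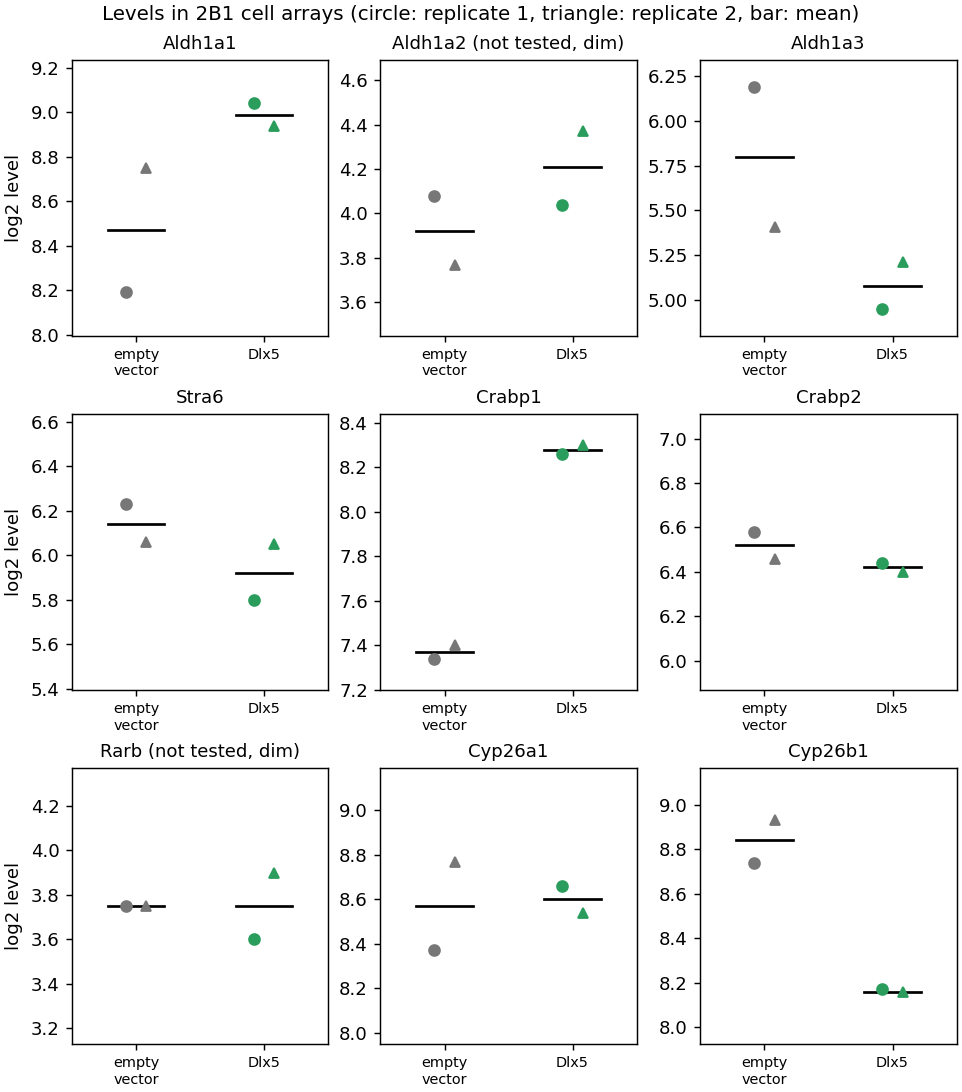
Log2 level of the 9 genes in the 4 arrays of 2B1 cells, empty vector in grey and labelled Dlx5 in green, with circles for replicate 1, triangles for replicate 2 and bars for the mean of 2 arrays, each panel on its own axis. Crabp1 is higher in cultures labelled Dlx5, at 8.26 and 8.30 against 7.34 and 7.40, and Cyp26b1 is lower, at 8.17 and 8.16 against 8.74 and 8.93.

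Of the 40 other pathway genes tested in 2B1 cells 0 were called by limma (7 at an unadjusted p under 0.05, against 12.9% of all genes), with 27 higher and 13 lower in cultures labelled Dlx5 and a median of 0.11 against 0.05 over all genes. The largest differences by role were those of Adh5 (0.61), Rdh14 (0.47) and Aldh8a1 (-0.45) among synthesis genes, Fabp5 (0.34) and Ttr (-0.12) among carriers, and Rara (-0.51), Rxrg (-0.26) and Rxra (0.19) among receptors. Ncoa2 (0.66), Nrip1 (-0.38) and Kat2b (0.32) led the coregulators, and Hoxb4 (0.58), Nr2f1 (0.54) and Meis1 (0.53) the response genes. Several of these values depend on empty vector replicate 1, without which Meis1 was 0.11, Ncoa2 0.23, Nrip1 -0.59, Kat2b 0.14, Fabp5 0.19, Ttr -0.22, Rxrg -0.04 and Rxra 0.10. As a mean over all probe sets of the gene Meis1 was 0.06, Ncoa2 0.29, Nrip1 -0.17, Rdh14 0.21 and Adh5 0.36. Aldh1a3, which had the largest difference between genotypes, is set side by side here by probe set. Set 1448789_at gave 1.29 in labelled-null against wild-type vesicles and -0.10 in cells labelled Dlx5 against empty vector cells. In 2B1 cells this set read only 3.05 to 3.27, below the filter of 4.85. Set 1417642_at gave 0.83 and -0.72, and the latter was -0.33 without empty vector replicate 1. None of these differences was called. For Crabp1 the values were -0.11 and 0.91, and for Cyp26b1 -0.14 and -0.67.

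Across the 8 vesicle arrays Pearson's r between the 5 members that rose with stage ranged from 0.57 (Aldh1a3 and Cyp26b1) to 0.89 (Stra6 with Aldh1a2 and with Rarb), which is given as a description since these arrays fall into 4 groups that differ by stage and genotype. Members that did not pass reached values as high, with 0.93 between Cyp26a1 and Aldh1a3, 0.91 between Cyp26a1 and Aldh1a2 and 0.88 between Crabp2 and Stra6, while r was -0.64 between Aldh1a1 and Aldh1a3. Among 1168 genes whose group means spanned at least 1, the pattern most like that of Aldh1a3 was that of Bmp6, a BMP ligand gene (r = 0.982), followed by Basp1 (0.981) and Rasgrf1 (0.974). For Aldh1a2 these were Lrmda (0.994), Hexdc (0.992) and Selenom (0.991), and for Stra6 Selenon (0.992), Atn1 (0.991) and Maged2 (0.989). The best matches of Aldh1a1, Pcgf3 (0.897), Igfbpl1 (0.876) and Usp45 (0.864), were less close. Bmp6 differed by 0.86 between labelled-null and wild-type vesicles over both stages, in the direction of Aldh1a3, whereas Lrmda differed by -0.13, near the -0.11 of Aldh1a2. Both genes were picked by their likeness over these same 8 arrays, so such agreement follows from the choice and is no separate result.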

How the data were processed

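The authors deposited log2 values for 45101 probe sets on each of 12 arrays, made with RMA and Affymetrix Expression Console per the submitters' processing notes; versions, scanner files and scan dates were not used here. Array means were 6.10 to 6.11 in vesicles and 5.76 to 5.82 in 2B1 cells, so levels were not compared between them. Of the probe sets 34958 named 1 gene, 932 several and 9211 none, and symbols were updated through RefSeq (GRCm38.p6), 34754 by gene identifier, 1 by accession and 203 as listed. Each gene was tested by its probe set with the highest mean in the fitted arrays, and the lowest 25% of genes were left out. All 9 members passed in vesicles and 7 in 2B1 cells.

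limma 3.58.1 in R 4.3.3 (lmFit, eBayes) was run over 13645 genes in vesicles and 13647 in 2B1 cells, with Benjamini-Hochberg adjustment over all of them and a threshold of 0.05. The genotype comparison over both stages had stage as a covariate (5 residual degrees of freedom), the comparisons within stage or genotype used the means of the 4 vesicle groups (4), and 2B1 cells were fitted alone (2). These vesicle comparisons share arrays. The members, the lists, the rule for named genes and the left-out arrays were chosen with earlier results of these data known. Named genes were the members, Dlx5, pathway genes called in any comparison or among the 3 largest of their role over both stages or in 2B1 cells, and the 3 genes of most alike pattern for members whose vesicle group means spanned at least 1; Eif2s3y was named as a covariate. The fits were tested on simulated data. Alternatives were probe sets singly or averaged, other filters, centring, an intensity trend, a replicate block, left-out arrays and the Eif2s3y covariate.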

Additional observations from a re-analysis of the deposited data

How the results depend on the processing

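Precision was limited by 2 arrays a group, and signal over background is unknown. Of the alternative values of named differences, 1249 kept their direction and side of the threshold, 98 lost a call, 18 gained one and 24 turned sign. In wild-type vesicles the 2 members called between stages became 0 with probe sets singly, no filter, centred arrays or the Eif2s3y covariate. With centred arrays 19 genes were called higher and 16 lower there, from 160 and 136. With 1 array left out 0 to 3 members were called there. Over both genotypes 5 members became 1 with the Eif2s3y covariate and 2 to 6 with 1 array left out. Calls over all genes, 2158 of 13645 in the main fit over both genotypes, also fell with this covariate. The loss of calls with it was therefore not confined to the members. Other counts of members stayed at 0 with 1 array left out. The counts with 1 array left out are of members only and are not set against all genes. Without both E10 replicate 1 arrays, which leaves 1 array in each E10 group, Aldh1a3 differed by 1.15 between genotypes. It differed by 1.46 between stages in labelled-null vesicles. Same-numbered arrays deviated together at E10 (r = 0.71) but not clearly at E10.5 (0.07) or in 2B1 cells (-0.13), so the replicate numbers were not taken to pair the arrays. With the number as a replicate block 4 members were called between stages in wild-type vesicles, where 4098 of all 13645 genes were called. In labelled-null vesicles 5 members and 2279 of 13645 genes were called. Between genotypes the block called 1 member (Aldh1a3, limma adjusted p = 0.0391) and 18 of 13645 genes. In 2B1 cells it called 1 member (Crabp1, limma adjusted p = 0.00870) and 258 of 13647 genes. A crossed replicate block in 2B1 cells, added after seeing the data, called 20 genes and 0 members, with Crabp1 at limma adjusted p = 0.0675. With 1 array left out, signs turned for Aldh1a1 (-0.68 to 0.08) between stages in wild-type and Crabp1 (-0.16 to 0.01) in labelled-null vesicles, for Aldh1a2 (-0.79 to 0.27), Stra6 (-0.18 to 0.10) and Rbp2 (-0.06 to 0.15) between genotypes, and for Cyp26a1 (-0.17 to 0.23) and Ttr (-0.29 to 0.06) in 2B1 cells. Stra6 was 0.01 between genotypes without both E10 replicate 1 arrays. With the Eif2s3y covariate the genotype difference was 1.05 for Aldh1a2 (0.59 at E10.5), 0.14 for Stra6, 0.02 for Crabp2, 0.19 for Rdh10, -0.05 for Aldh8a1, -0.12 for Rbp2 and -0.04 for Rxra, and the wild-type stage difference of Crabp2 was -0.04. The cause was not tested for any of these.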
